A study of Oryza sativa with 6 samples.

Results

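The genes described are the 4 that carry the early steps of gibberellin synthesis in rice (Oryza sativa), from geranylgeranyl diphosphate to GA12, among 27397 genes with normalized reads. They were chosen by locus identifier: CPS1 (Os02g0278700, chromosome 2), KS1 (Os04g0611800, chromosome 4), KO2 (Os06g0570100, chromosome 6) and KAO (Os06g0110000, chromosome 6). That choice, and the choice of the gene lists below, was made with earlier results of these data known. Counts of calls among them are therefore descriptive. All 4 were present in the table, and all 4 passed the filter on low reads that left 24149 genes for testing. CPS1 would not have passed it on its wild type libraries alone. RNA sequencing compared the knockout line pine1-1a, in the Nipponbare background, with wild-type Nipponbare, at 3 libraries per genotype. Each library came from 8 pooled plants, sampled 20 days after germination from soil in a 16 h long-day chamber, with no treatment. The tissue was the basal 1 cm of the plant, made up of stem and shoot apex. The labels name a single knockout line and do not state the kind of allele or how many independent lines it stands for.

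Gibberellins are diterpenoid hormones that promote stem and internode elongation. In the plastid, 2 cyclases turn geranylgeranyl diphosphate into ent-kaurene: CPS1 makes ent-copalyl diphosphate, and KS1 converts it to ent-kaurene. The cytochrome P450 enzymes KO2 and KAO then oxidise ent-kaurene by way of ent-kaurenoic acid to GA12, the precursor that 20-oxidases and 3-oxidases turn into active hormone. Rice carries further copies of the cyclases and kaurene oxidases that serve diterpenoid phytoalexins, which are defence compounds. Loss of the early enzymes is known to give dwarf rice.

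Recovered reads per library ran from 27918842 to 31997002 in pine1 and from 28699032 to 36250239 in wild type. PINE1 itself (Os12g0617000), a C2H2 zinc finger gene, had 4173 to 5199 normalized reads in pine1 and 2943 to 3674 in wild type. It was called higher in pine1 (log2 0.50, 95% interval 0.27 to 0.73, limma adjusted p = 0.0214). With the allele not stated, its level does not check the labels, and directions refer to the libraries labelled pine1. KNOX homeobox genes, which mark the apex and young stem, were read in all libraries, and 3 of 5 rose (OSH1, OSH15 and OSH6, by 1.30, 1.08 and 0.78 on the log2 scale), while OSH43 (-0.59, 95% interval -1.16 to -0.02) and OSH71 (-0.02) did not pass; the 5 genes' summed normalized reads were 3599 to 4476 in pine1 and 2036 to 2640 in wild type. Of 3 secondary wall cellulose synthases 1 rose, with sums of 3759 to 5089 in pine1 and 2157 to 2885 in wild type. Of 5 leaf markers tested 2 rose, with sums over all 6 of 57050 to 64869 in pine1 and 44650 to 53064 in wild type. Of 2 root markers 1 rose (Os01g0704100, log2 1.52), and RCc3 (Os02g0662000) did not pass (log2 -1.18, limma adjusted p = 0.134). Their sums were 109 to 312 in pine1 and 363 to 594 in wild type. Of all genes tested 4.02% were called higher. Some marker calls were weak: of 16 other settings of the fit, 9 ended that of the leaf gene RbcS3 (Os12g0291100) and 5 that of OSH6. For Os01g0704100 it was 7 of the 15 settings that hold it. The 3 reproductive apex markers in the table stayed at or below 7.07 normalized reads in every library. The summed KNOX, secondary wall and leaf markers were higher in every pine1 library, as CPS1 and KAO were, and the summed root markers were lower. Few genes carry these sums, and members of a list can go apart. CesA4 carries the secondary wall sum (2101 to 4943 normalized reads over the 6 libraries) and RCc3 the root sum (88.9 to 589). The chlorophyll-binding genes Os09g0346500 and Os01g0600900 carry the leaf sum, while the rubisco gene Os12g0292400 had a log2 fold change of -0.25 and did not pass. The part of these markers in the results was not tested. The libraries are bulk tissue, so more cells of a type and more RNA per cell cannot be told apart. Whether the pools were grown separately is not stated, and p-values cover only the spread between these 6 samples.

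The ends of this stretch of the pathway rose in pine1 while the middle steps did not pass the test. CPS1 was 2.92-fold and KAO 3.22-fold higher in pine1. KS1 and KO2 had fold changes of 1.00 and 0.982, with pine1 and wild type libraries overlapping in both. Thus 2 of the 4 genes were called higher at an adjusted p under 0.05 and 0 lower; of all 24149 genes tested 6.46% were called, 4.02% higher and 2.44% lower. The genotypes did not overlap in 2 of the 4, against 26.4% of all genes tested. The median log2 fold change of the 4 genes was 0.77, which lies between KS1 and CPS1 and is near no single gene. That of all genes tested was 0.00. All values are the authors' normalized reads, that is, gene counts divided by a size factor per library. Fold changes are pine1 over wild type on the log2(normalized reads + 1) scale, tested with limma and Benjamini-Hochberg adjustment over all genes tested. That scale understates the change of low genes. Levels are not compared between genes, because these values are not scaled to transcript length.

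**Figure D1:**
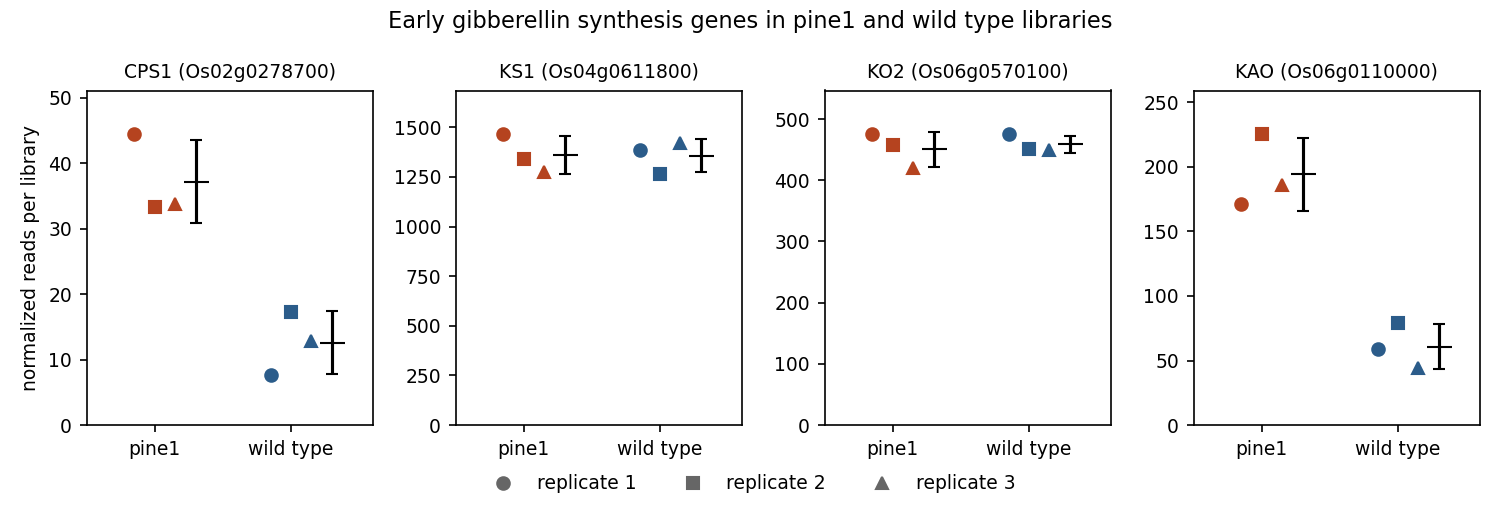
Normalized reads (vertical axis, from 0) of CPS1, KS1, KO2 and KAO in 3 pine1 libraries (left, red) and 3 wild type libraries (right, blue), with marker shapes for replicate numbers and a bar for the mean ± SD. All pine1 points lie above all wild type points in CPS1 and KAO, while the genotypes overlap in KS1 and KO2.

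CPS1 commits geranylgeranyl diphosphate to this branch and was read few times per library in both genotypes. It had 44.5, 33.3 and 33.8 normalized reads in pine1 replicates 1 to 3, against 7.64, 17.3 and 12.8 in wild type replicates 1 to 3. The lowest pine1 library was thus above the highest wild type library, replicate 2. The means were 37.2 ± 6.27 in pine1 and 12.6 ± 4.83 in wild type (SD, n = 3 each), and the log2 fold change was 1.55 with an SE of 0.33 (limma adjusted p = 0.0265). Its 95% interval ran from 0.80 to 2.29. Behind these values stand 109 recovered reads over the 3 pine1 libraries and 40 over the 3 wild type libraries. The filter on low reads asks for a minimum count of 10, scaled to library size, in at least 3 libraries. CPS1 met it through its pine1 libraries, the group where it is higher, because wild type replicate 1 fell below that count. The single lowest library, wild type replicate 1, held 7 reads, for which counting error alone gives an exact 95% Poisson interval of 2.81 to 14.4 reads. Across pine1 libraries the coefficient of variation was 16.9%, and reads of this number give 16.9% from counting alone. Across wild type libraries it was 38.4%, against 29.7% from counting alone. The call rested on the full set of libraries: leaving out any library but wild type replicate 2 gave an adjusted p between 0.0643 and 0.0765, while without wild type replicate 2 it was 0.0263. The direction was kept in each of those fits, with a log2 fold change of 1.25 to 1.79.

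The authors' deposited table lists CPS1 as OsCPS1, described as similar to kaurene synthase A, an older name for this cyclase. That table gives a log2 fold change of -1.56 for wild type over pine1 (SE 0.48, adjusted p = 0.0186), which is the same direction as here.

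KS1, the second cyclase, had nearly the same level in the libraries of both genotypes. It had 1466, 1340 and 1276 normalized reads in pine1 replicates 1 to 3, against 1387, 1265 and 1421 in wild type replicates 1 to 3. The highest library was a pine1 one and the lowest a wild type one, and the other 4 lay between them. The means were 1360 ± 96.7 in pine1 and 1358 ± 82.0 in wild type (SD, n = 3 each), and the log2 fold change was 0.00 (SE 0.07, adjusted p = 0.991). The 95% interval ran from -0.16 to 0.17, which in folds is 0.895 to 1.12. Unlike CPS1, this gene had 3974 recovered reads in pine1 and 4248 in wild type. The coefficient of variation over libraries was 7.11% in pine1 and 6.04% in wild type, against 2.77% and 2.68% from counting alone.

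KO2, the P450 that oxidises ent-kaurene to ent-kaurenoic acid, also did not pass. It had 475, 458 and 420 normalized reads in pine1 replicates 1 to 3, against 475, 452 and 450 in wild type replicates 1 to 3. Replicate 1 was the highest of its genotype in both, and pine1 replicate 3 was the lowest of all 6. The means were 451 ± 28.5 in pine1 and 459 ± 14.1 in wild type (SD, n = 3 each), and the log2 fold change was -0.03 (SE 0.08, adjusted p = 0.894). The 95% interval of -0.21 to 0.16, or 0.863 to 1.12 as a fold, lies below the changes fitted for CPS1 and KAO. Recovered reads came to 1317 in pine1 and 1431 in wild type.

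KAO, which completes the stretch by taking ent-kaurenoic acid to GA12, had the largest fold change of the 4. It had 171, 225 and 186 normalized reads in pine1 replicates 1 to 3, against 59.0, 78.8 and 44.5 in wild type replicates 1 to 3. Replicate 2 was the highest library in either genotype, and the lowest pine1 library was above every wild type library. The means were 194 ± 28.0 in pine1 and 60.8 ± 17.2 in wild type (SD, n = 3 each), and the log2 fold change was 1.69 with an SE of 0.22 (limma adjusted p = 0.00236). Its 95% interval ran from 1.20 to 2.18. In folds the interval is 2.29 to 4.53. It rests on 565 recovered reads in pine1 and 188 in wild type. The coefficient of variation over libraries was 14.4% in pine1 and 28.4% in wild type, against 7.35% and 12.9% from counting alone. The call was kept in all 6 fits that left out a library, with an adjusted p of 0.00185 to 0.0129 and a log2 fold change of 1.49 to 1.89. It was also kept when tested against a fold of 1.5 (adjusted p = 0.0385), where CPS1 was not (adjusted p = 0.452).

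KAO appears as OsKAO in the authors' deposited table, described as similar to DWARF3, its maize counterpart. There the log2 fold change for wild type over pine1 is -1.68 (SE 0.24, adjusted p = 4.46e-10). KS1 and KO2 are not among the 1962 genes of that table.

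**Figure D2:**
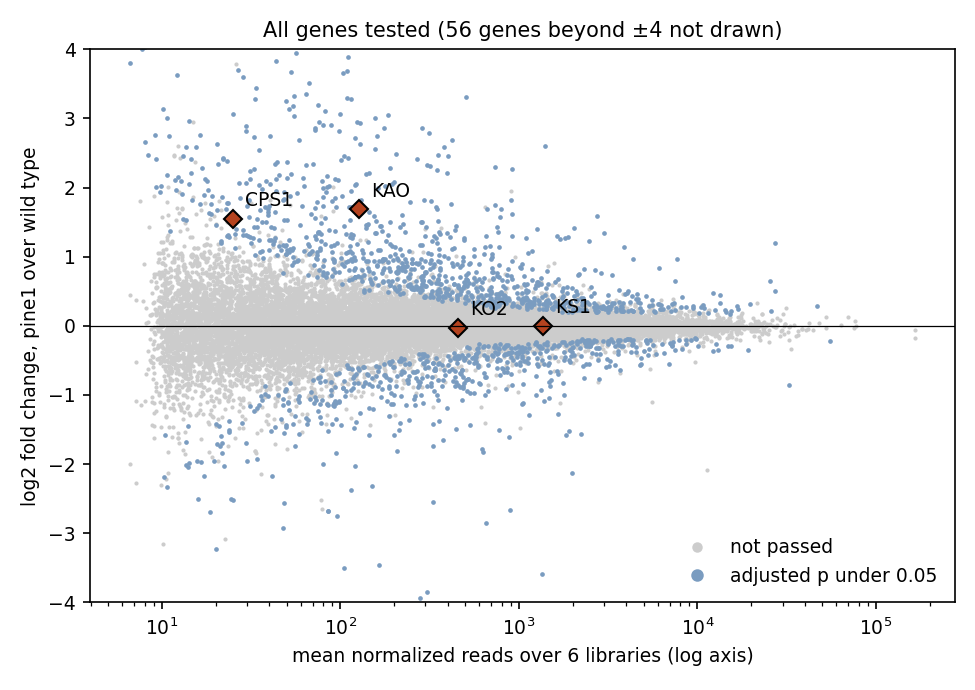
Log2 fold change of pine1 over wild type (vertical axis) against mean normalized reads over the 6 libraries (horizontal axis, log scale) for the genes tested, with called genes in blue, the others in grey and the 4 early gibberellin synthesis genes as labelled diamonds. CPS1 and KAO lie at 1.55 and 1.69, and KS1 and KO2 near the zero line; 56 genes beyond ±4 are not drawn.

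Set among all genes tested, the fold changes of CPS1 and KAO were larger than those of 98.9% and 99.0% of genes. Among the 970 genes called higher they were larger than 74.8% and 76.9%.

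A gene that passes beside one that does not is not thereby shown to differ from it, so the genotype effects were compared within libraries. For each of the 6 pairs of genes the log2 ratio of their values was taken in every library and compared between genotypes. The log2 ratio of KAO to KS1 was -3.09, -2.57 and -2.77 in pine1 replicates 1 to 3, against -4.53, -3.99 and -4.97 in wild type replicates 1 to 3. The genotypes are apart by 1.69 on the log2 scale (95% interval 0.79 to 2.58). The log2 ratio of KAO to KO2 was -1.47, -1.02 and -1.17 in pine1, against -2.99, -2.50 and -3.31 in wild type, a difference of 1.71 (95% interval 0.97 to 2.46). For CPS1 the differences were 1.54 against KS1 (0.54 to 2.54) and 1.57 against KO2 (0.59 to 2.55). In these 4 pairs the ratios of the genotypes did not overlap, and each gave an exact two-sided permutation p of 0.10, the smallest that 3 against 3 libraries allow (0.15 after adjustment over the 6 pairs). The 95% intervals, which assume a normal spread pooled over the 2 genotypes, do not include 0 in these 4 pairs.

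In the other 2 pairs the intervals include 0. KO2 against KS1 differed by -0.03 between genotypes (95% interval -0.18 to 0.13, exact permutation p = 0.60, adjusted 0.72). The log2 ratio of KO2 to KS1 lay between -1.66 and -1.48 in all 6 libraries. KAO against CPS1 differed by 0.14, with an interval of -0.94 to 1.23 (exact permutation p = 0.80, adjusted 0.80). The ratio of the 2 fold changes was 1.10. The libraries thus do not show whether CPS1 and KAO moved by the same amount.

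KO2 lies in a row of kaurene oxidase genes on chromosome 6, and the named copies beside it did not share its level pattern. The 2 named copies were lower in pine1, while KO2 did not pass. KO4 (Os06g0569500), which the authors' deposited table ties to diterpenoid phytoalexin synthesis, had 18.4, 12.1 and 10.2 normalized reads in pine1 replicates 1 to 3, against 81.9, 87.5 and 79.5 in wild type replicates 1 to 3. It fell by 2.57 on the log2 scale (SE 0.26, limma adjusted p = 6.93e-04), and the call was kept in each of the 15 settings that hold the gene, the filter of 5 CPM having removed it. OsKO1 (Os06g0569900), listed there as similar to ent-kaurene oxidase 1, had 0 reads in all 3 pine1 libraries, against 8, 11 and 13 recovered reads in wild type replicates 1 to 3. Against a floor of 3 reads per library it was at least 3.27-fold lower in pine1. The filter on low reads kept it out of the main test, and with no filter its limma adjusted p was 0.00339. With every pine1 library at 0, that p-value does not measure a spread between pine1 libraries. OsKO1 is singled out here after its values were seen.

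**Figure D3:**
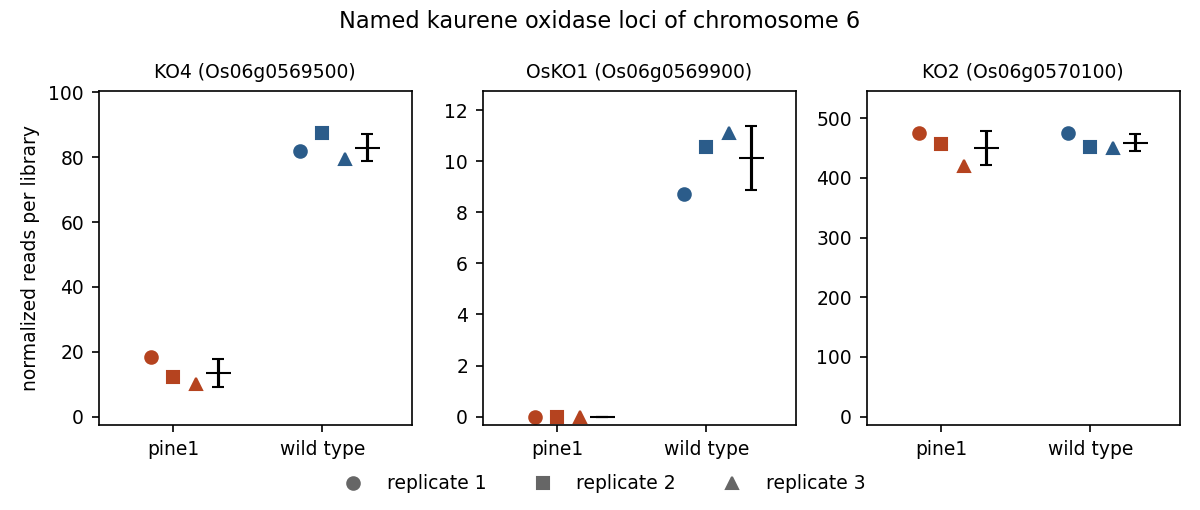
Normalized reads (vertical axis) of KO4, OsKO1 and KO2 in 3 pine1 libraries (left, red) and 3 wild type libraries (right, blue), with marker shapes for replicate numbers and a bar for the mean ± SD. KO4 and OsKO1 are low or at 0 in pine1 and higher in every wild type library, while KO2 overlaps.

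The range of identifiers Os06g0568000 to Os06g0570999 holds 7 measured loci beside KO2, of which 4 were tested: 0 rose, 1 fell (KO4) and 3 did not pass. Of all genes tested 4.02% were called higher and 2.44% lower. The most abundant, Os06g0568000, had 5764 to 5974 normalized reads in pine1 and 6023 to 6741 in wild type (log2 -0.10, limma adjusted p = 0.308). These libraries do not overlap, which holds for 26.4% of all genes tested, and the files give the locus no name. Kaurene oxidase copies resemble each other, and the treatment of reads that fit several copies is not stated, so the split of reads among KO2, KO4 and OsKO1 is uncertain. The sources do not say either whether strand was used in counting, which leaves reads from overlapping genes unresolved.

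Genes next to the 4 by locus identifier were called at a share near that of all genes. Of the 5 tested loci on each side, 40 in all, 2 were called (5.0%, against 6.46% of all genes tested), both lower and both near KO2. The genotypes did not overlap in 9 of the 40 (22.5%, against 26.4% of all genes tested). The 2 called neighbours were KO4 and OsEF1G2 (Os06g0571400), an elongation factor subunit by its description. OsEF1G2 had 13489 to 14613 normalized reads in pine1 and 16581 to 17564 in wild type (log2 -0.29, limma adjusted p = 0.00682). No neighbour of CPS1, KS1 or KAO passed, and the most abundant of each had log2 fold changes of 0.09 (Os02g0276500), -0.08 (Os04g0612600) and 0.09 (Os06g0111400). The median log2 fold change of the 10 neighbours was 0.00 for CPS1, 0.14 for KS1, -0.10 for KO2 and 0.08 for KAO.

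The wider pathway was followed through 6 lists of 49 loci, of which 41 are in the table and 30 were tested. These lists too were chosen with earlier results of these data known. Among the tested loci 3 rose, 0 fell and 27 missed the threshold, with a median log2 fold change of 0.15. Of all genes tested 4.02% were called higher and 2.44% lower, and their median was 0.00. The authors' deposited table names 2 of the 30; the place of the others in these lists was set from general knowledge of rice and was not checked against an annotation. The supply of geranylgeranyl diphosphate upstream of CPS1, through the plastid MEP route, was tested at 9 loci: 0 rose, 0 fell and 9 did not pass. Their log2 fold changes were -0.17 to 0.22, with 7 of the 9 above 0. The most abundant, Os03g0731900, listed as the last reductase of that route, had 4653 to 5293 normalized reads in pine1 and 4264 to 4488 in wild type (log2 0.19, adjusted p = 0.0833). Although these libraries do not overlap, it did not pass, and it passed with DESeq2 and without pine1 replicate 1. At 4 loci of other enzymes that use geranylgeranyl diphosphate, for carotenoids and chlorophyll, 0 passed. The most abundant of those, Os02g0744900, had a log2 fold change of 0.11 (adjusted p = 0.359).

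Downstream of GA12, 6 loci of the late oxidases were tested: 2 rose, 0 fell and 4 did not pass, with a median of 0.21. The shares over all genes tested were 4.02% higher and 2.44% lower. OsGA20ox7 (Os08g0560000), similar to gibberellin 20-oxidases by its description, had 125, 157 and 135 normalized reads in pine1 replicates 1 to 3, against 29.5, 43.2 and 29.1 in wild type replicates 1 to 3. As in KAO, replicate 2 was the highest library in both genotypes, but whether the genes vary together was not tested. The log2 fold change of OsGA20ox7 was 2.02 (SE 0.21, limma adjusted p = 7.5e-04). The semidwarf gene of rice breeding, named 20ox2 in the authors' deposited table (Os01g0883800), had 210, 197 and 180 normalized reads in pine1, against 136, 122 and 129 in wild type. Its log2 fold change was 0.59 (adjusted p = 0.0225), but the call held in only 1 of the 6 fits that left out a library, the one without pine1 replicate 3.

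Of 5 inactivation loci tested, which are listed as 2-oxidases that remove gibberellin or its precursors, 1 rose, 0 fell and 4 did not pass. Again, 4.02% of all genes tested were called higher and 2.44% lower. Os05g0158600 had 86.8 to 113 normalized reads in pine1 and 53.0 to 70.2 in wild type (log2 0.74, adjusted p = 0.0486). That call ended whenever a single library was left out, and also with DESeq2, upper-quartile scaling, no filter or the test against a fold of 1.5. Os01g0209700, named after its values were seen, had 28.0, 29.3 and 53.0 normalized reads in pine1 replicates 1 to 3, against 8.74, 16.3 and 18.8 in wild type replicates 1 to 3. These libraries do not overlap, and its log2 fold change of 1.28 did not pass (95% interval 0.44 to 2.11, adjusted p = 0.0806). The locus with the most reads, Os01g0757200, had 458, 1118 and 690 normalized reads in pine1 replicates 1 to 3, against 740, 643 and 756 in wild type replicates 1 to 3 (log2 -0.01, 95% interval -0.59 to 0.58). Pine1 replicate 2 was the highest of its 6 libraries and pine1 replicate 1 the lowest. All 6 signalling loci were tested and 0 passed. Os03g0707600, listed as the DELLA repressor of gibberellin responses, had 10853 to 12200 normalized reads in pine1 and 9612 to 10617 in wild type (log2 0.18, 95% interval 0.05 to 0.31, adjusted p = 0.104).

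**Figure D4:**
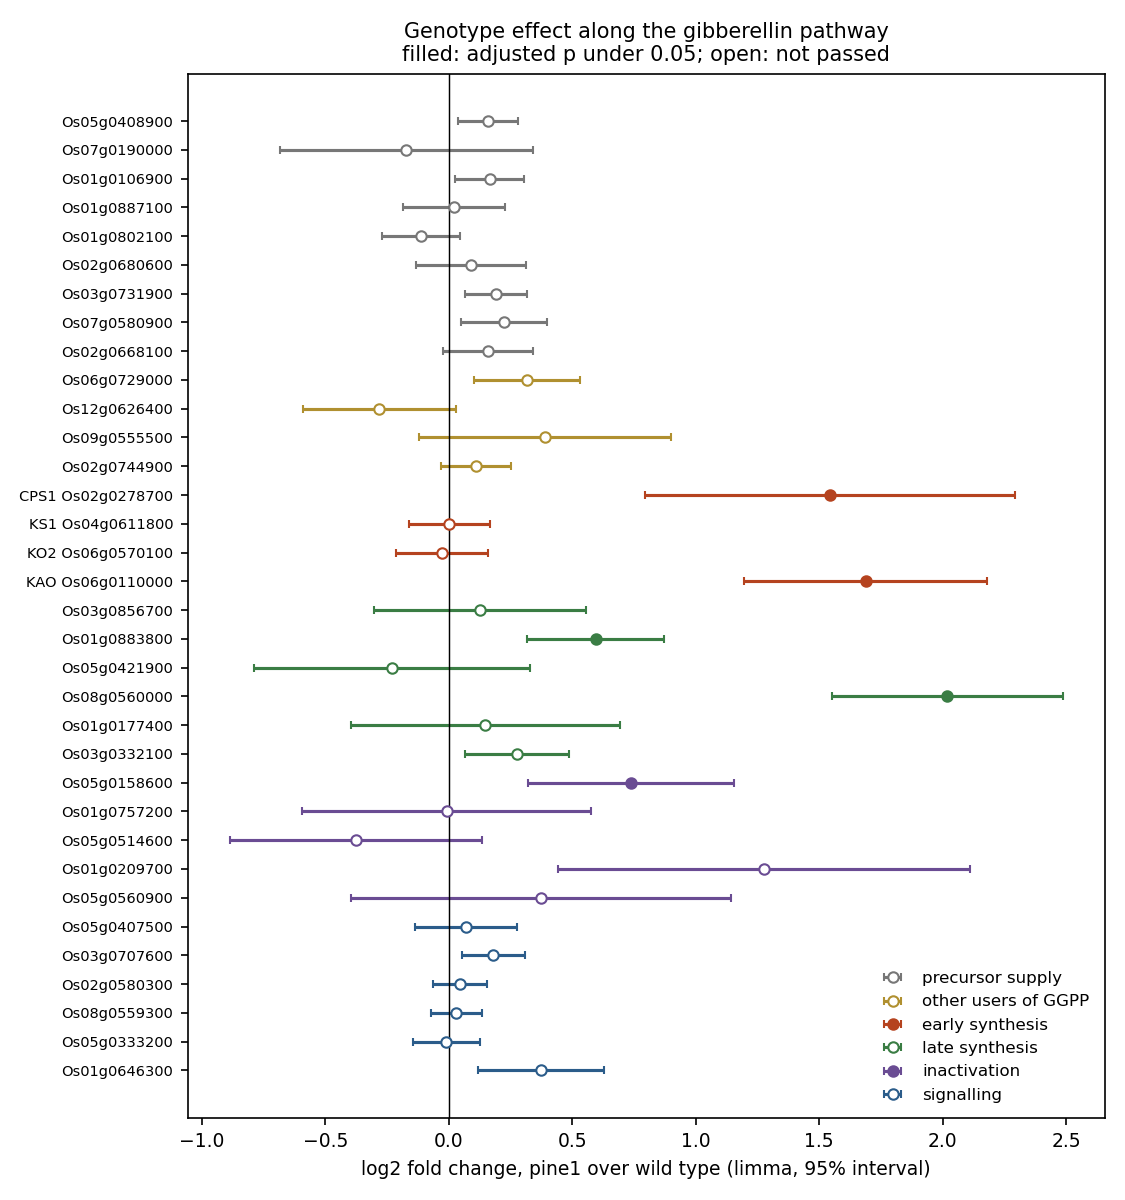
Log2 fold change of pine1 over wild type with its 95% limma interval (horizontal axis) for the 4 early genes and 30 other pathway loci (vertical axis, ordered from precursor supply to signalling); filled points have an adjusted p under 0.05. CPS1, KAO and OsGA20ox7 (Os08g0560000) lie between 1.55 and 2.02, and KS1 and KO2 lie at zero between them.

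Named genes whose profile over the 6 libraries was closest to each of the 4 were ranked by the root mean square difference of mean-centred log2 values, over 764 genes with a symbol and a mean of at least 30 normalized reads. Symbols come from the authors' table of genes that differ in these same libraries, so even the closest matches to KS1 and KO2 come from genes listed there as different. Closest to KAO were GRP (Os10g0450900), similar to a glycine-rich wall protein, at 0.11, the peroxidase gene Pox (Os12g0112000) at 0.12 and OsBetvI (Os08g0374000) at 0.18. GRP had 1158, 1705 and 1237 normalized reads in pine1 replicates 1 to 3, against 395, 642 and 333 in wild type replicates 1 to 3. Its order of libraries within each genotype is that of KAO, which the choice of GRP by closeness over these same libraries favours. Closest to CPS1 were OsMYB46 (Os12g0515300) at 0.23, the KNOX gene OSH1 (Os03g0727000) at 0.23 and OsRMC (Os04g0659300) at 0.24. Counting alone gives CPS1 a coefficient of variation of 16.9% in pine1 and 29.7% in wild type. These nearly equal distances include that error, so the ranking of genes near CPS1 is uncertain. OSH1 had 998, 1033 and 761 normalized reads in pine1 replicates 1 to 3, against 281, 441 and 421 in wild type replicates 1 to 3.

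For KS1 the closest were OsARF1 (Os11g0523800) at 0.11, OsC3H23 (Os03g0329200) at 0.12 and OsFPPS2 (Os05g0543400) at 0.12. For KO2 they were OsSPL15 (Os08g0513700) at 0.09, OsPT18 (Os06g0210500) at 0.09 and OsFPPS2 at 0.09. OsFPPS2, similar to farnesyl diphosphate synthase, an enzyme of isoprenoid supply, had 6666 to 7005 normalized reads in pine1 and 7420 to 8350 in wild type (log2 -0.19, adjusted p = 0.0724).

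**Figure D5:**
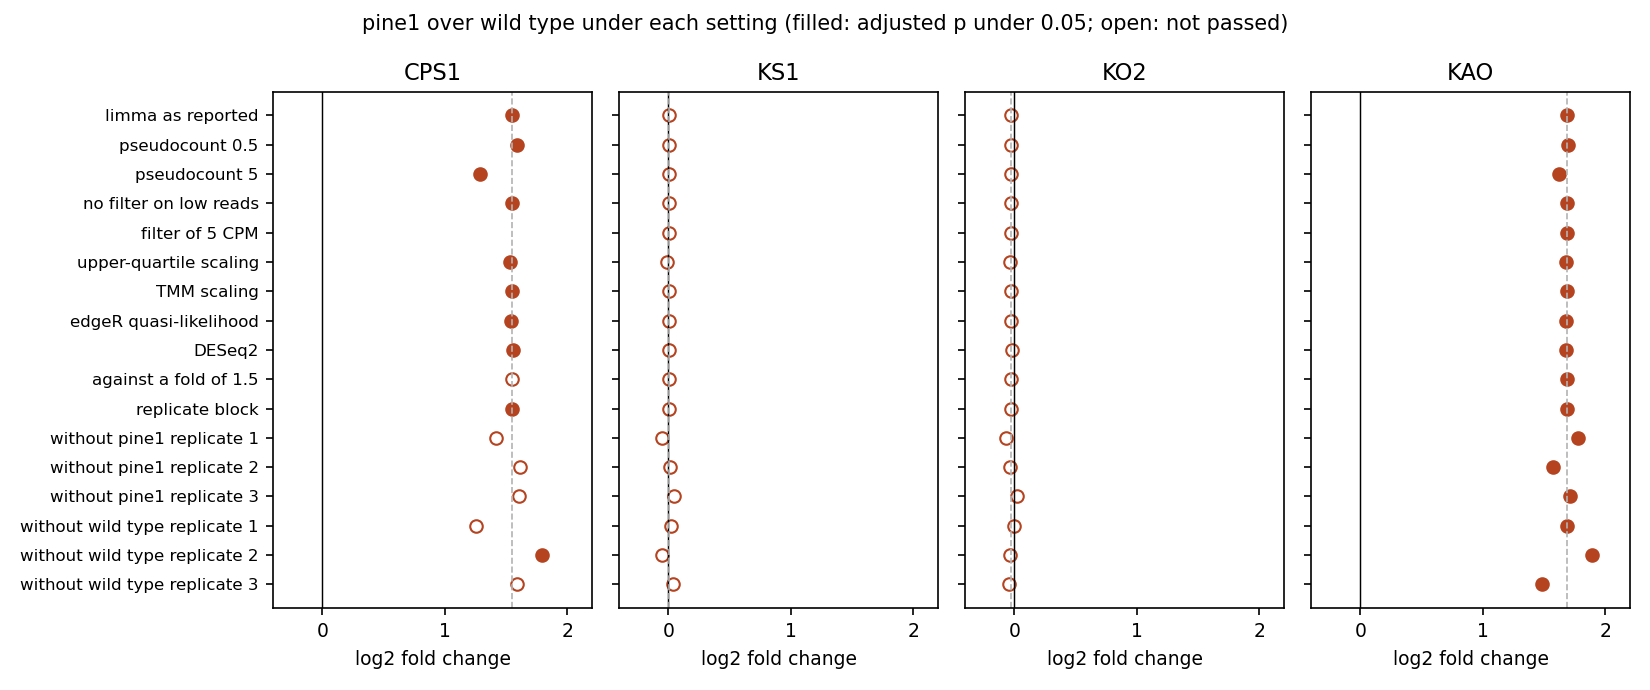
Log2 fold change of pine1 over wild type (horizontal axes) for CPS1, KS1, KO2 and KAO under the reported limma fit and 16 other settings (vertical axis); filled points have an adjusted p under 0.05 and the dashed line marks the reported value. KAO is filled in every row, CPS1 is open when most single libraries are left out and is missing under the filter of 5 CPM, and KS1 and KO2 are open throughout.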

How the data were processed

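Per the submitters' processing notes, the tools named are FastQC, STAR, HTSeq and DESeq2 and the build is IRGSP-1.0, with no version, role or setting stated. Per the labels' protocols, oligo(dT)-enriched messenger RNA was fragmented and copied with random hexamers. In the deposited sheet 2 tables stand one above the other. Signal values (normalized reads) of each gene fill the upper one, and the authors obtained them as counts divided by library size factors. This was read from the values: 100% are whole multiples of 1 step per library within 0.001 reads, so counts could be recovered. Deposited columns of 5 of the 6 libraries were handled as a score only because the lower table shares them. The lower table holds the authors' log2 fold changes and adjusted p-values of 1962 genes, per the file headers. No gene of the upper table has under 10 reads in total; any below that are not analysed here.

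The fit was limma with an intensity trend on log2(normalized reads + 1), for genes kept by edgeR's filterByExpr with a minimum count of 10; p-values were adjusted over all 24149. edgeR's quasi-likelihood test, DESeq2 and the other settings are alternatives. Pairs of genes were compared by exact permutation. Without molecular identifiers, read intervals hold counting error alone. Named pathway genes are those called and, in lists with fewer than 2 calls, the most abundant; marker lists are given by counts and sums. Gene symbols come from the authors' table; KS1 and KO2 carry the names by which they were chosen. RefSeq's gene table, of assembly ASM3414082v1, lists a gene of each of the 4 names on the same chromosomes (2, 4, 6 and 6) and gives OsKO1 and OsKO2 as names of a single gene; no coordinates of it are used. The members and lists were chosen with earlier results of these data known. Scripts were tested on simulated data. Fits ran in R 4.3.3 (limma 3.58.1, DESeq2 1.42.0, edgeR 4.0.16). Summaries and plots were made in Python 3.11.15 with scipy 1.17.1, numpy 2.4.6, matplotlib 3.10.9 and pandas 2.3.3.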

Additional observations from a re-analysis of the deposited data

How the results depend on the processing

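KAO kept its direction and its call under all 16 settings (log2 1.49 to 1.89 without single libraries). CPS1 kept its direction in all 15 settings that hold it, with 1.25 to 1.79 without single libraries; 5 of those 6 fits ended its call, as did the test against a fold of 1.5 (1.55, adjusted p = 0.452), and the filter of 5 CPM removed it. With the replicate block the log2 fold changes were 1.55 for CPS1 (adjusted p = 0.0351) and 1.69 for KAO (9.04e-04). The labels do not say whether replicate numbers pair the libraries. Correlations between deviations from the genotype means were 0.055, 0.022 and 0.134 for same-numbered libraries. For the others they ran from -0.241 to 0.161, and 3 libraries per genotype are too few to decide the pairing. The block changed no call of the 4 genes, while the 2-oxidase locus Os01g0209700 passed with it (adjusted p = 0.0367). With the block, calls over all genes were 1195 higher and 799 lower. The small fold changes of KS1 and KO2 changed sign: KS1 was -0.0080 with upper-quartile scaling, -0.0524 without pine1 replicate 1 and -0.0476 without wild type replicate 2, within -0.0524 to 0.0477 without single libraries, and KO2 was 0.0243 without pine1 replicate 3, within -0.0655 to 0.0243. KAO against CPS1 was -0.04 without pine1 replicate 2 and -0.10 without wild type replicate 3 (-0.10 to 0.43 without single libraries), and KO2 against KS1 was 0.0101 without wild type replicate 2 (-0.077 to 0.0101). Calls over all genes were 970 higher and 589 lower; against a fold of 1.5 they were 174 and 51, and without single libraries 563 to 757 and 261 to 544, with fewer higher calls by over 1.5 times without wild type replicates 1 (563) and 3 (640), and fewer lower calls by as much without wild type replicates 1 (261), 2 (270) and 3 (384). CPS1 had the fewest reads of the 4 genes, 109 in pine1 and 40 in wild type; the cause of its lost calls was not tested.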

Other observations

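Loci listed as relatives of CPS and KS, several of which serve phytoalexins, were read at low levels in this tissue. Of 10 such loci, 7 are in the table and 0 passed the filter on low reads, with single libraries between 0 and 25.6 normalized reads and no test. The most abundant, Os04g0179700, listed as a kaurene synthase-like gene, had 5.80, 11.1 and 3.38 normalized reads in pine1 replicates 1 to 3, against 8.74, 7.69 and 12.8 in wild type replicates 1 to 3. Os02g0570400 reached 25.6 in wild type replicate 3 and had at most 1.93 in the other 5 libraries. The loci beside KS1 that are listed as its relatives were low in both genotypes too: Os04g0612000 had 2.02 to 10.2 normalized reads in pine1 and 0 to 1.71 in wild type, and Os04g0611700 had 4.83 to 5.64 in pine1 and 5.98 to 10.9 in wild type.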
